A study of Mus musculus with 10 samples.

Results

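Chromatin-modifying enzymes and their coregulators were followed in the brown fat of mice kept at room temperature or in the cold. The genes were taken by their symbols in the count table: lysine demethylases (Kdm), lysine acetyltransferases (Kat, Ep300, Crebbp), histone deacetylases (Hdac) and sirtuins (Sirt), SET domain and other histone methyltransferases (Setd, Ezh1, Ezh2, Eed, Suz12, Ehmt2, Suv39h1, Suv39h2), arginine methyltransferases (Prmt, Carm1), DNA methylation enzymes (Dnmt, Tet), nuclear receptor coregulators (Ncoa, Ncor) and bromodomain genes (Brd). The choice used names and no measured value, so the methyltransferases include Eed and Suz12, Polycomb subunits that are not enzymes themselves. It held 91 of the 20295 genes of the table, and 84 of them had enough reads to be tested, among 11229 genes in all.

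The samples were interscapular brown adipose tissue, a depot of heat-producing fat that lies between the shoulder blades. The mice were C57BL/6JBomTac males, 8 weeks old and housed singly, with no genetic change named in either group. Controls (n = 5) stayed at 22 °C, and the cold-exposed mice (n = 5) spent 3 days at 4 °C, with a library of poly-A selected RNA from each mouse. Library totals ran from 4446163 to 6923932 counts. Levels are given in CPM, the count scaled to a common library size, and group means with their SD (n = 5), beside log2 fold changes of cold against control and their standard errors (SE). A gene was called when its adjusted p from edgeR's quasi-likelihood test was under 0.05 (Benjamini-Hochberg over all genes tested), and higher or lower below mean called so.

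Histone tails carry acetyl and methyl groups that acetyltransferases and methyltransferases write, deacetylases and demethylases remove, and bromodomain proteins read. Corepressors such as Ncor1 bring the deacetylase Hdac3 to nuclear receptors, and coactivators such as Ncoa1 bring acetyltransferases. In brown fat, several of these proteins, among them Kdm1a, Ehmt1 and Hdac3, are known to act at thermogenic genes. Many of these enzymes are controlled through their activity, their cofactors or their partners, none of which RNA counts measure.

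Of the 84 genes tested, 11 were called (13.1%), beside 19.3% of all genes tested. In all 6 were higher in cold, among them Setd7, Ncoa1, Setd6, Setd8 and Kdm6b (7.14% of the 84, beside 10.2% of all genes). Hdac1, Setd4, Hdac10, Prmt10 and Hdac3 were lower (5.95%, beside 9.14%). Control and cold libraries did not overlap for 5 of the 84 (5.95%), beside 14% of all genes tested, and all 5 were among the called genes. No called gene of the 84 changed by 2-fold or more, a size that 398 called genes of the table reached. The median size of the log2 fold change was 0.18 over the 84 genes and 0.22 over all genes tested, and 56 of the 84 (66.7%) lay within 0.25 of no change, beside 55.6% of all. The median log2 fold change was -0.06 for the 84 genes and -0.02 for all.

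**Figure D1:**
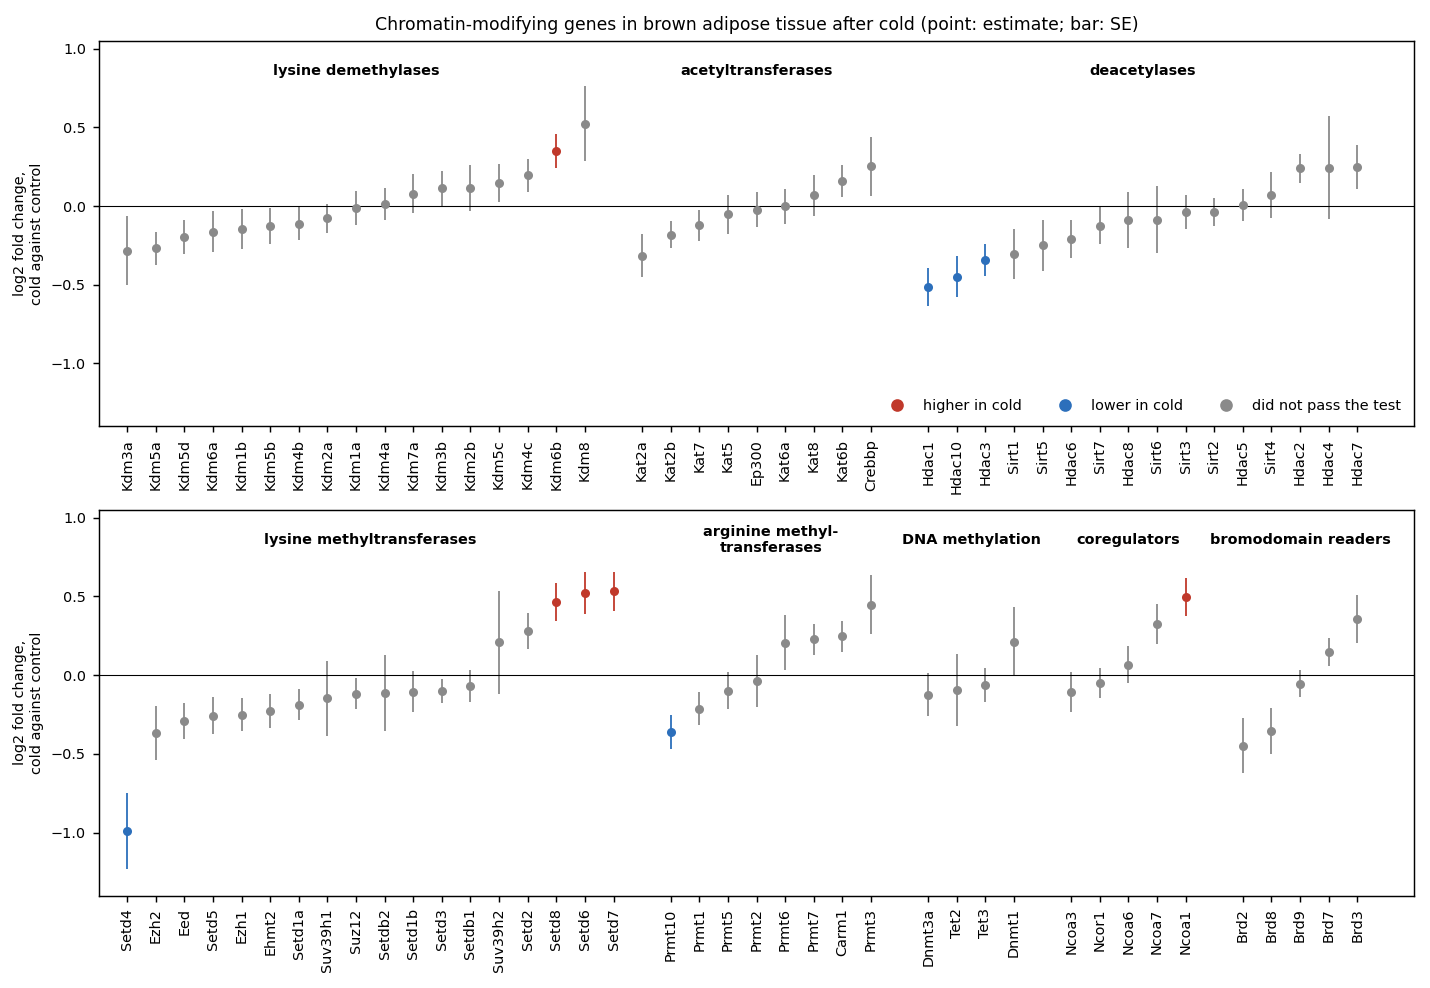
Log2 fold change of cold against control (vertical axis, bar: SE) of 82 of the 84 genes tested, in 2 rows grouped by role and ordered within each role. Red points were higher, blue points lower and grey points did not pass the test; Setd4 at -0.99 lies lowest and Setd7 at 0.53 highest.

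The labelled tissue was checked against its markers: all 11 brown adipocyte markers were detected, and their summed level ranged from 26300 to 30300 CPM over the control libraries and from 36300 to 41500 over the cold ones. Most of that rise was Ucp1, the uncoupling protein of brown fat, with a mean of 9123 ± 801 in control and 18532 ± 852 CPM in the cold. Among the 11 markers, 2 were higher, 2 were lower and 7 did not pass. Among markers of other cells, those of dividing cells summed to between 65.5 and 92.8 CPM in control libraries and between 64.9 and 140 CPM in cold ones, with 3 of 12 tested genes higher. Macrophage markers summed to 126 to 266 CPM against 92.8 to 399 CPM, endothelial markers to 708 to 1020 CPM against 860 to 1030 CPM, and fibroblast markers to 415 to 631 CPM against 278 to 932 CPM. Skeletal muscle markers summed to 5.97 to 83 CPM against 7.11 to 348 CPM. None of these lists had a marker at 0 in the table as a whole. Their part in the results below was not tested. In whole tissue, fewer cells of a type and less RNA per cell cannot be told apart. Control replicate 2 and cold replicate 5 stood apart within their groups: control replicate 2 was the highest control library for 32 of the 84 genes and cold replicate 5 the highest cold library for 29. With both left out, 15 of the 84 genes were called, 8 higher and 7 lower, beside 25.3% of all genes; Brd2, Ezh1, Kdm5a, Ncoa7 and Setd2 were added and Prmt10 was lost. With any 1 library left out, between 6 and 14 of the 84 genes were called. The fewest were called without cold replicate 3 (7.14%, beside 13.8% of all genes in that fit), where Hdac3, Kdm6b, Prmt10 and Setd8 were among those lost. The most were called without control replicate 1 (16.7%, beside 20.3% of all genes), where Brd2, Brd8, Ehmt2 and Kdm8 were added and Kdm6b was lost.

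Levels compared per length placed 2 sirtuins first. RPKM, which is CPM divided by the counted transcript length in kilobases, averaged over both groups, was 65.3 for Sirt3, the main deacetylase of mitochondria, and 51.2 for Sirt2, a mainly cytoplasmic deacetylase. Setd8 followed at 48.1 RPKM, then Hdac2 at 40.03, Setd3 at 34.3 and Brd2 at 30.6 RPKM. In control libraries Sirt3 was at 66.2 ± 10.1 RPKM and Sirt2 at 51.9 ± 5.46 RPKM. Setd8 at 40.5 ± 7.85 and Hdac2 at 36.7 ± 3.78 RPKM differed there by less than their SDs. In cold libraries Sirt3 was at 64.4 ± 5.75, Setd8 at 55.8 ± 5.11 and Sirt2 at 50.6 ± 3.94 RPKM. The lowest of the 84 was Suv39h2, an H3K9 methyltransferase, at 0.447 RPKM, preceded by Hdac4 at 0.893 RPKM. The median of the 84 genes was 6.42 RPKM, below the 8.67 RPKM of all genes tested, and 33 of the 84 lay above that median.

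**Figure D2:**
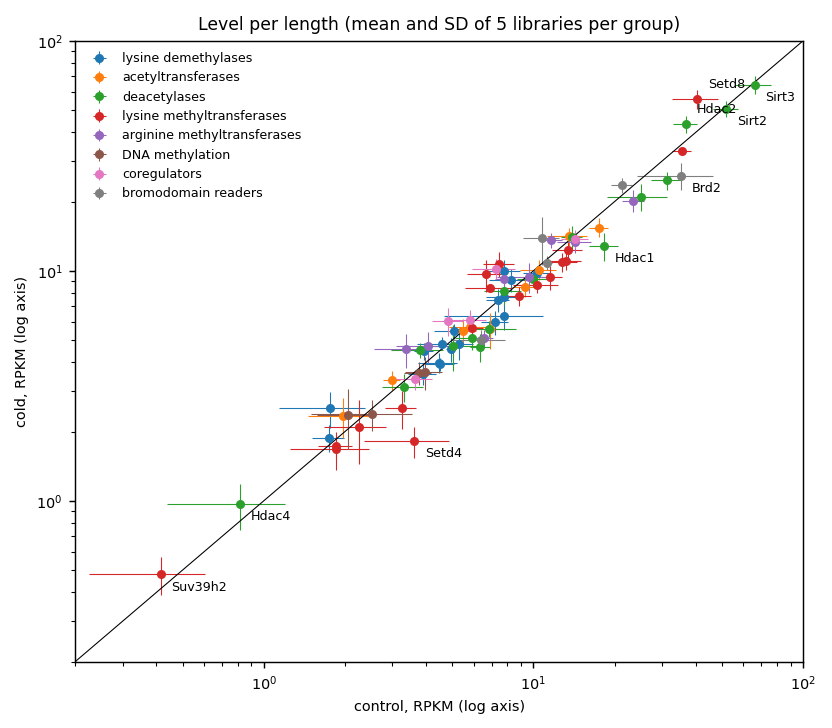
Level per length in control (horizontal axis) and cold (vertical axis) libraries, RPKM on log axes, for 82 of the 84 genes; points are means, bars SD over 5 libraries, and the line marks equal levels. Sirt3 stands at the top, Suv39h2 and Hdac4 at the bottom, and Setd4 lies farthest below the line. In cold libraries Setd8, at 55.8 RPKM, lies above Sirt2 at 50.6 RPKM.

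Lysine methyltransferases, grouped by name and with Eed, Suz12 and the histidine methyltransferase Setd3 among them, held 4 of the called genes. Of 18 tested, 3 were higher and 1 was lower (22.2%, beside 19.3% of all genes). All 4 belong to the 9 SET domain genes outside the Polycomb and H3K9 groups. Setd7 adds a single methyl group to lysine 4 of histone H3 and to many other proteins. Its gene lies at chr3:51319240-51364745 (mouse build mm9). It was at 43.4, 53.4, 58.8, 48.0 and 41.3 CPM in control replicates 1 to 5 and at 72.1, 63.7, 68.8, 60.6 and 89.2 CPM in cold replicates 1 to 5. Every cold library lay above every control library. The means were 49.0 ± 7.19 and 70.9 ± 11.2 CPM (n = 5 each), a log2 fold change of 0.53 (SE 0.12, edgeR adjusted p = 0.0102), or 44.6% more. Setd6, which methylates the NF-kappaB subunit RelA, lies at chr8:98239813-98242904. It was at 13.6, 10.6, 11.03, 12.6 and 14.5 CPM in control and 14.4, 19.0, 17.1, 19.98 and 19.1 CPM in cold libraries. The groups touched, with cold replicate 1 at the level of control replicate 5. Setd6 had a log2 fold change of 0.52 (SE 0.13, edgeR adjusted p = 0.0146).

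Setd8, now named Kmt5a, places the single methyl group on lysine 20 of histone H4, a mark tied to chromosome condensation and the cell cycle. Its gene lies at chr5:124889939-124912316. It was at 89.8, 92.4, 142.7, 111.3 and 117.8 CPM in control and 148.2, 131.9, 169.7, 157.9 and 156.4 CPM in cold libraries. Control replicate 3 exceeded cold replicate 2, and the other control libraries lay below all cold ones. Setd8 had a log2 fold change of 0.46 (SE 0.12, edgeR adjusted p = 0.0183), and without cold replicate 3 the adjusted p was 0.0526. The summed dividing-cell markers given above were also higher in cold on average. They were at 80.6 ± 10.9 in control and 120 ± 31.6 CPM in cold libraries. In cold replicate 5, a single library that stood apart within its group, those markers were lowest and Setd8 was at 156.4 CPM. Any link between Setd8 and dividing cells was not tested.

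Setd4 had the largest fold among the called genes. It lies at chr16:93583706-93604060 and was a low transcript, with 268 reads over all 10 libraries. It was at 4.75, 10.4, 4.83, 6.74 and 6.19 CPM in control and 3.26, 2.95, 3.42, 4.12 and 2.81 CPM in cold libraries. All cold libraries lay below all controls, and control replicate 2 lay far above the other 4 controls. The log2 fold change was -0.99 (SE 0.24, edgeR adjusted p = 0.0123), and it ranged from -1.09 to -0.77 with any 1 library left out, always called. Setd7, Setd6, Setd4, Hdac1 and Ncoa1 were called in all 10 fits that left out 1 library and under all 10 other settings tried.

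Polycomb repressive complex 2 places methyl groups on lysine 27 of histone H3 through Ezh1 or Ezh2. Eed and Suz12 are among its other core subunits. None of these 4 genes was called, beside 19.3% of all genes, and their log2 fold changes ran from -0.37 to -0.12. Rbbp7, a further subunit, was lower and is given with the deacetylase partners below. Ezh2 was at 7.47, 7.45, 8.96, 10.1 and 9.08 CPM in control and 7.90, 6.21, 5.84, 5.39 and 8.23 CPM in cold libraries. The groups overlapped, since cold replicates 1 and 5 reached the range of the controls. Ezh2 had a log2 fold change of -0.37 (SE 0.17, edgeR adjusted p = 0.147), beside -0.25 (SE 0.11, edgeR adjusted p = 0.117) for Ezh1, -0.29 for Eed and -0.12 for Suz12. Without control replicate 2, Ezh1 was at -0.32 with an edgeR adjusted p of 0.0306. Ezh1 passed in no other fit that left out 1 library, with an edgeR adjusted p of up to 0.238. Per length, Ezh1 exceeded Ezh2 by 4.02-fold in control and 4.38-fold in cold libraries.

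None of the 5 tested H3K9 methyltransferases was called, beside 19.3% of all genes, with log2 fold changes from -0.23 to 0.21. Ehmt2, known as G9a, was at -0.23 (SE 0.11, edgeR adjusted p = 0.154) and Setdb1 at -0.07. Without control replicate 1, Ehmt2 had an edgeR adjusted p of 0.0456. Ehmt2 passed in no other fit that left out 1 library, with an edgeR adjusted p of up to 0.286. Suv39h2 shares 5303 bases of its span with Dclre1c on the opposite strand, so its low level is uncertain.

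Among the deacetylases, 3 of the 16 tested were lower in cold and none was higher. The share called was 18.8%, beside 19.3% of all genes called in either direction and 9.14% lower. Hdac1, a class I enzyme of the NuRD, Sin3 and CoREST complexes, lies at chr4:129193348-129219890. It was at 41.9, 34.5, 30.1, 38.2 and 35.5 CPM in control and 29.9, 23.2, 24.2, 21.3 and 27.9 CPM in cold libraries. Each cold library lay below each control library, narrowly for cold replicate 1. The means were 36.0 ± 4.37 and 25.3 ± 3.53 CPM (n = 5 each), a log2 fold change of -0.51 (SE 0.12, edgeR adjusted p = 0.00988), or -30.0%. Hdac2, its close relative in the same complexes, averaged 73.6 ± 7.57 in control and 86.9 ± 7.63 CPM in cold libraries, a log2 fold change of 0.24 (SE 0.09) that did not pass (edgeR adjusted p = 0.0841).

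Hdac3 is the deacetylase of Ncor1 corepressor complexes, and mice that lack it in brown fat are known to tolerate acute cold poorly. Its gene lies at chr18:38096625-38114642. It was at 52.3, 73.6, 67.1, 61.1 and 59.4 CPM in control and 50.2, 46.3, 46.2, 48.2 and 56.7 CPM in cold libraries. Control replicate 1 lay below cold replicate 5, and the other controls lay above all cold libraries. Hdac3 had a log2 fold change of -0.34 (SE 0.10, edgeR adjusted p = 0.0315). The call was lost without control replicate 2, 3 or 4 or without cold replicate 1, 2, 3 or 4, with an adjusted p of up to 0.0805, and the log2 fold change then stayed between -0.41 and -0.28.

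Hdac10, a class IIb enzyme that acts on polyamines, lies at chr15:88953733-88959130. It was at 15.4, 14.5, 13.8, 17.2 and 15.9 CPM in control and 12.9, 9.32, 12.1, 12.1 and 9.91 CPM in cold libraries. The groups did not overlap. Hdac10 had a log2 fold change of -0.45 (SE 0.13, edgeR adjusted p = 0.0265), and the call was lost without control replicate 4 or 5 or cold replicate 2, at an adjusted p of up to 0.0689. Of the class IIa enzymes, Hdac5 averaged 51.3 ± 4.55 in control and 51.5 ± 6.39 CPM in cold libraries. Hdac4 was at 3.22 ± 1.503 and 3.81 ± 0.867 CPM (log2 fold change 0.24, SE 0.33), too few reads for a precise value.

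None of the 7 sirtuins, the NAD-dependent deacetylases, was called, beside 19.3% of all genes. Sirt1, a nuclear sirtuin that deacetylates Ppargc1a, was at 20.8, 36.1, 27.1, 27.3 and 19.0 CPM in control and 20.8, 22.2, 20.4, 19.0 and 23.4 CPM in cold libraries. Control replicate 2 was the highest of all, and the groups overlapped (log2 fold change -0.30, SE 0.16, edgeR adjusted p = 0.193). Sirt3 was at 99.3, 74.0, 111.9, 87.3 and 90.4 CPM in control and 80.6, 84.8, 89.1, 95.8 and 100.4 CPM in cold libraries. The cold values all fell inside the range of the controls (log2 fold change -0.04, SE 0.11). Sirt3 overlaps Ric8 by 69 bases on the opposite strand. Sirt5, the mitochondrial desuccinylase, was at -0.25 (SE 0.16) and Sirt6, a chromatin-bound sirtuin, at -0.09 (SE 0.21).

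**Figure D3:**
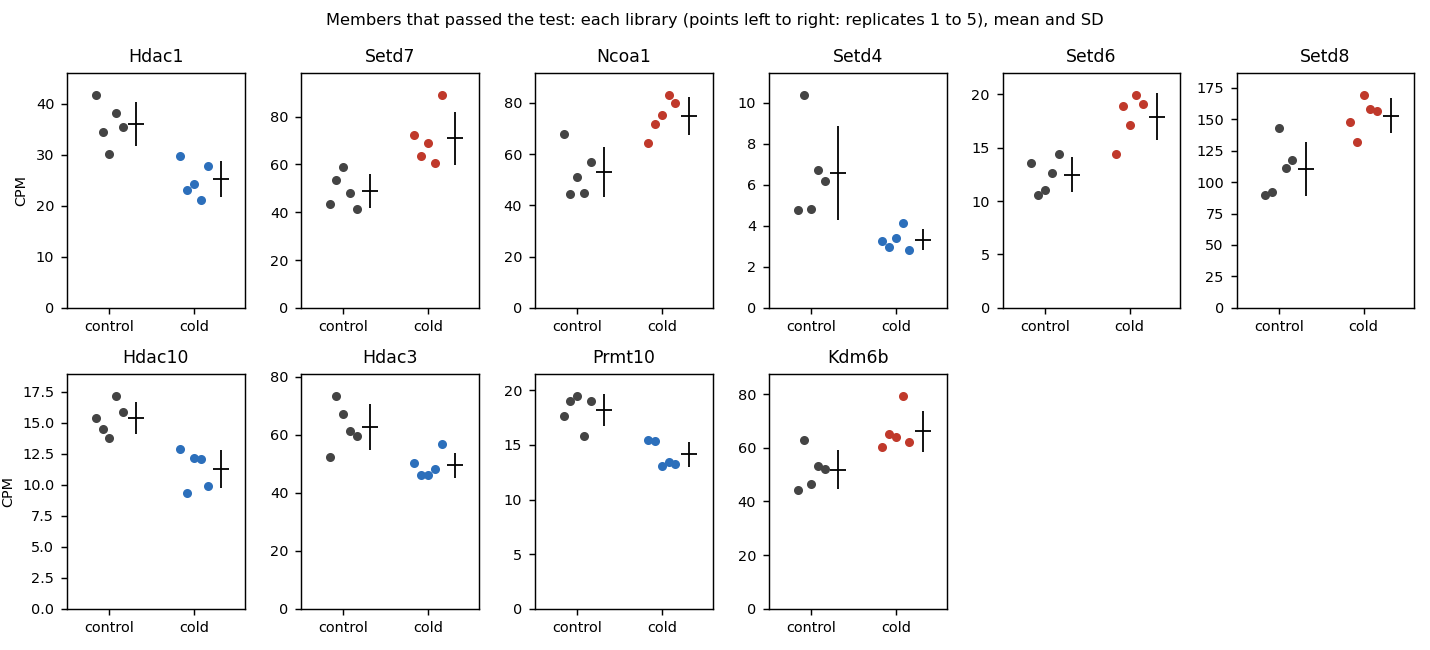
CPM of 10 of the 11 called genes in every library (points, replicates 1 to 5 from left to right in each group) with mean and SD beside them; each vertical axis starts at 0. The groups do not overlap for Hdac1, Setd7, Setd4, Hdac10 and Prmt10.

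Of the 17 lysine demethylases tested, 1 was higher and none was lower (5.88%, beside 19.3% of all genes). Kdm6b, known as JMJD3, removes methyl groups from lysine 27 of histone H3 and lies at chr11:69212020-69227177. It was at 44.3, 63.0, 46.6, 53.1 and 52.2 CPM in control and 60.1, 64.9, 64.0, 79.4 and 62.3 CPM in cold libraries. Control replicate 2 lay among the cold libraries, and cold replicate 4 lay above the rest. The log2 fold change was 0.35 (SE 0.11, edgeR adjusted p = 0.0409). The call was lost without control replicate 1, 3, 4 or 5 or cold replicate 2, 3 or 4, with an adjusted p of up to 0.104. Kdm1a, known as LSD1, was at 20.8, 27.7, 26.0, 23.4 and 19.6 CPM in control and 23.4, 23.9, 22.1, 23.2 and 23.9 CPM in cold libraries. The cold libraries lay close together inside the range of the controls (log2 fold change -0.01, SE 0.11).

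Kdm3a, a demethylase of lysine 9 of histone H3 linked to thermogenic genes in mice, averaged 37.4 ± 14.9 in control and 30.8 ± 4.18 CPM in cold libraries. Control replicate 2 stood at 60.2 CPM, and the log2 fold change was -0.28 (SE 0.22, edgeR adjusted p = 0.392). Kdm5a, a demethylase of lysine 4 of histone H3, was at -0.27 (SE 0.10, edgeR adjusted p = 0.0853) and passed without cold replicate 5, at 0.0376. Kdm5a passed in no other fit that left out 1 library, with an edgeR adjusted p of up to 0.189. Kdm8 was at 0.52 (SE 0.24, edgeR adjusted p = 0.140) from 4.29 and 6.18 CPM, and passed without control replicate 1, at 0.0476. Kdm8 passed in no other such fit, with an edgeR adjusted p of up to 0.275.

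None of the 9 acetyltransferases was called, beside 19.3% of all genes, and their log2 fold changes ran from -0.31 to 0.25. Ep300 and Crebbp are the large acetyltransferases that bind CREB and many other factors. Ep300 averaged 50.8 ± 8.24 in control and 50.0 ± 2.69 CPM in cold libraries, and Crebbp averaged 14.8 ± 3.85 and 17.5 ± 3.52 CPM. Kat2b, known as PCAF, was at 81.4 ± 6.42 and 71.8 ± 6.78 CPM (log2 fold change -0.18, SE 0.09, edgeR adjusted p = 0.166). Kat2a, known as GCN5, had the lowest log2 fold change of the group at -0.31 (SE 0.14, edgeR adjusted p = 0.121).

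Of the coregulators, 2 of 6 tested were higher and none was lower. The share called was 33.3% over 6 genes only, beside 19.3% of all genes called in either direction and 10.2% higher. Ncoa1, known as SRC-1, is a coactivator of nuclear receptors and lies at chr12:4247362-4484060. It was at 67.9, 44.5, 51.0, 44.97 and 57.0 CPM in control and 64.4, 71.6, 75.1, 83.2 and 79.9 CPM in cold libraries. Control replicate 1 exceeded cold replicate 1, and the rest of the groups lay apart. The means were 53.1 ± 9.71 and 74.8 ± 7.33 CPM (n = 5 each), a log2 fold change of 0.50 (SE 0.12, edgeR adjusted p = 0.0122). Ncor1, a corepressor, was at 125.9 ± 14.4 and 121.8 ± 10.6 CPM (log2 fold change -0.05, SE 0.09).

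Of the 8 arginine methyltransferases tested, 1 was lower and none was higher. The share called was 12.5%, beside 19.3% of all genes called in either direction and 9.14% lower. Prmt10, now named Prmt9, methylates a splicing factor and lies at chr8:80073296-80105237. It was at 17.7, 19.0, 19.5, 15.8 and 19.0 CPM in control and 15.5, 15.4, 13.1, 13.5 and 13.3 CPM in cold libraries. The groups did not overlap, by a narrow gap between control replicate 4 and cold replicate 1. Prmt10 had a log2 fold change of -0.36 (SE 0.11, edgeR adjusted p = 0.0344), and the call was lost without control replicate 2, 3 or 5 or cold replicate 3, 4 or 5, at an adjusted p of up to 0.0854. Prmt1, the main enzyme of asymmetric arginine methylation, was at -0.21 (SE 0.11, edgeR adjusted p = 0.173). Carm1, which methylates histone H3 with Ncoa coactivators, was at 0.25 (SE 0.10, edgeR adjusted p = 0.101).

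No DNA methylation gene among the 4 tested was called, beside 19.3% of all genes. Dnmt1, the maintenance methyltransferase, averaged 10.8 ± 2.49 in control and 12.4 ± 3.63 CPM in cold libraries, and Dnmt3a, a de novo methyltransferase, averaged 38.5 ± 6.03 and 35.2 ± 5.71 CPM. Tet2, which oxidises methylcytosine, was at 23.2 ± 9.48 and 21.8 ± 3.37 CPM, with control replicate 2 at 38.8 CPM. None of the 6 bromodomain genes was called either, beside the same 19.3% of all genes. Brd2, a reader of acetylated histones, was at 123.7, 253.0, 149.1, 164.4 and 133.1 CPM in control and 106.5, 129.6, 116.9, 107.2 and 144.6 CPM in cold libraries. Control replicate 2 lay far above all others. The log2 fold change of Brd2 was -0.45 (SE 0.17, edgeR adjusted p = 0.0875), and -0.24 (adjusted p = 0.141) without control replicate 2.

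The 7 genes with too few reads to be tested were Dnmt3b with 77 reads over all 10 libraries, Hdac11 with 76, Tet1 with 55, Hdac9 with 40, Dnmt3l with 28, Kdm4d with 1 and Prmt8 with 0. Hdac11, the class IV deacetylase, had 7 to 14 reads per control library and 4 to 10 per cold library. Its mean was 1.89 ± 0.610 in control and 0.968 ± 0.376 CPM in cold libraries. These 7 genes were removed by the filter on low counts, and no test of them is given here. Among the tested genes, 9 overlapped another gene model, all on the opposite strand, and none of these was called.

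Ratios of related enzymes within a library do not depend on how libraries are scaled. Of the 12 pairs listed, 11 had both genes tested, and none passed after adjustment over the pairs. A single pair at the smallest possible p adjusts to 0.0873 and so could not pass alone. Of the 11 pairs, 4 had an unadjusted p under 0.05. The ratio of Hdac1 to Hdac2 per length was 0.498 in control, with a range of 0.367 to 0.594, and 0.295 in cold libraries, with a range of 0.235 to 0.354. It was lower in 5 of 5 cold libraries than in any control library (exact two-sided permutation test, p = 0.00794, the smallest that 5 against 5 can give, adjusted p = 0.0873). The ratio of Kdm6a to Kdm6b was 0.572 and 0.402 (exact permutation p = 0.0159, adjusted p = 0.0873). The ratio of Kdm5a to Kdm5c was 0.880 and 0.655 (exact permutation p = 0.0397, adjusted p = 0.109).

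**Figure D4:**
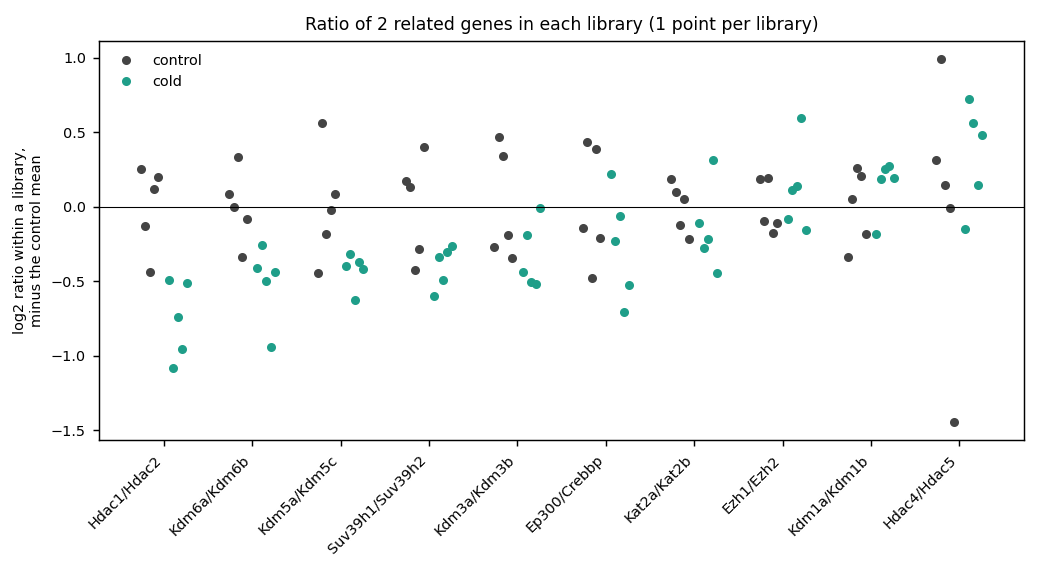
Log2 ratio of the 2 genes of a pair within each library, for 10 of the 11 pairs tested, minus the control mean of that pair (vertical axis), with 1 point per library, grey for control and green for cold. The groups of Hdac1/Hdac2 are apart, and the other 9 pairs drawn overlap.

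Promoter sequences from RefSeq (build GRCm38.p6) were matched to 76 of the 91 genes, 6 of them called. The 250 bases before the start are shown for the 4 called genes with stable calls that were matched, since Setd7, Setd6 and Ncoa1 were higher and Setd4 was lower. Capitals mark matches, on either strand, to the GC box GGGCGG, the CCAAT box CCAAT, the cAMP response element TGACGTCA or its shorter core TGACG, or the E-box CACGTG. The windows lie at chr3:51560824-51561073 (minus strand) for Setd7, chr8:95715663-95715912 (plus) for Setd6, chr12:4477183-4477432 (minus) for Ncoa1 and chr16:93603816-93604065 (minus) for Setd4.
Setd7: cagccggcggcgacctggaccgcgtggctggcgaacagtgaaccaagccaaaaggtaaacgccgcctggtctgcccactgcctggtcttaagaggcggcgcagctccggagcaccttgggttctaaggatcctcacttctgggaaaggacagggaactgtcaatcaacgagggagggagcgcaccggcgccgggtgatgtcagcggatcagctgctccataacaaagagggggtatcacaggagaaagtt
Setd6: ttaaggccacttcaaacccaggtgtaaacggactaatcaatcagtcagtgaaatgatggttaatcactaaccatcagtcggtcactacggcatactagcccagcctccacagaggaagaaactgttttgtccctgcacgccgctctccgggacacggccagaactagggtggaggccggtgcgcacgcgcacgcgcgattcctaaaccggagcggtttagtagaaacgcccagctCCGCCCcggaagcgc
Ncoa1: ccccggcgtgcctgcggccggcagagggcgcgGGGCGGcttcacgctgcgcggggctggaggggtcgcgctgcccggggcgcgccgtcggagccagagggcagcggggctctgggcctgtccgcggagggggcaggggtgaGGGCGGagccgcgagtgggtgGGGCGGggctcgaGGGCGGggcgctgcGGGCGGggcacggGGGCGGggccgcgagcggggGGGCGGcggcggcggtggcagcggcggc
Setd4: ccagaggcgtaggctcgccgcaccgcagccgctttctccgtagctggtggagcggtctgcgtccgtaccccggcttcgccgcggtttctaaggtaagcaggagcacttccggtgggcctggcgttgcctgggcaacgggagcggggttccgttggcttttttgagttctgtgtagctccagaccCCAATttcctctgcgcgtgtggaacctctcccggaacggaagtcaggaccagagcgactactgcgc
The Setd7 window held no match, the Setd6 window 1 GC box, the Ncoa1 window 7 GC boxes and the Setd4 window 1 CCAAT box. The CpG count was 17, 20, 40 and 24 in that order. The median was 16 CpG over the 76 windows, 16 over the 8577 tested genes with a window and 6 over all 27025 windows. The GC box occurred in 57.9% of the 76 windows, 61.2% of windows of tested genes and 32.9% of all windows. The CCAAT box occurred in 40.8%, 36.3% and 34.5% in that order. The cAMP response element, which contains that shorter motif, occurred in 2.63%, 2.81% and 1.62%, the shorter core in 30.3%, 28.0% and 17.9%, and the E-box in 7.89%, 8.70% and 6.05%. These shares were compared without a test. A match is a string of letters and was not tested as a binding site.

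Partners of these enzymes were read from lists of 186 further chromatin genes, of which 178 were tested, 16 were higher and 23 were lower (21.9% called, beside 19.3% of all genes). Of 24 deacetylase complex partners, 3 were higher and 5 lower (33.3% called, beside 19.3% of all genes). The remodelling ATPases of the NuRD complex went in opposite directions: Chd4 averaged 217.6 ± 17.9 in control and 153.2 ± 10.8 CPM in cold libraries (log2 fold change -0.51, SE 0.08, edgeR adjusted p = 0.00101). Chd3 was at 77.5 ± 15.6 and 128.2 ± 7.62 CPM (log2 fold change 0.73, SE 0.12, edgeR adjusted p = 0.00132). Neither gene's groups overlapped. Rbbp7, a histone-binding subunit of Hdac1 complexes and of Polycomb repressive complex 2, was lower, with a log2 fold change of -0.49 (edgeR adjusted p = 0.00152). Genes of the Sin3 complex went both ways: Sap18 and Suds3 were higher by 0.47 and 0.36, and Sin3a and Sin3b were lower at -0.48 and -0.37.

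Of 25 genes of Polycomb complex 1 and of accessory factors of complex 2, 2 were higher and 4 lower (24%, beside 19.3% of all genes). Bmi1, a core subunit of complex 1, was at 61.0 ± 7.12 and 93.4 ± 7.76 CPM (log2 fold change 0.61, SE 0.10, edgeR adjusted p = 0.000882). Phc2 was higher by 0.36, a call lost without control replicate 1, 4 or 5 or cold replicate 3, 4 or 5 (adjusted p up to 0.0807). Phf1, an accessory factor of complex 2, was lower at -0.78, and Cbx7, a reader of methylated lysine 27, at -0.98. Of 21 SWI/SNF subunits, 4 were higher and 3 lower (33.3% called, beside 19.3% of all genes). Smarcd1 was at 33.3 ± 8.33 and 66.6 ± 14.1 CPM (log2 fold change 0.99, SE 0.18, edgeR adjusted p = 0.00267), and Arid1b was higher by 0.44. Bcl7a was lower at -0.82 and the ATPase Smarca2 at -0.44, the latter lost without control replicate 4 or 5 or cold replicate 4 (adjusted p up to 0.0636). Smarca4, the other ATPase of that list, was higher by 0.39 (edgeR adjusted p = 0.00979).

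Of 32 acetyltransferase partners, 2 were higher and 2 lower (12.5% called, beside 19.3% of all genes). Tada2b was higher by 0.41 and Brpf3 by 0.54, and Ing5 was lower at -0.51 and Ccdc101 at -0.37. The Ing5 call was lost without control replicate 2 or 4 or cold replicate 1, 2 or 3 (adjusted p up to 0.0869), and the Ccdc101 call was kept only without control replicate 4 (adjusted p up to 0.111). Of 16 genes listed with the H3K4 methyltransferase complexes, 1 was higher (6.25% called, beside 19.3% of all genes). Hcfc1 was higher by 0.33, a call kept only without control replicate 1 or 3 (edgeR adjusted p up to 0.110). That list also holds Ncoa2, a nuclear receptor coactivator outside those complexes, at -0.19 and not called. Of 14 other lysine methyltransferases 1 was higher, Smyd4 by 0.87 (7.14% called, beside 19.3% of all genes). Ehmt1 and Prdm16 were at -0.08 and -0.09 and did not pass. Of 16 other JmjC and demethylase partner genes 3 were lower (18.8%, beside 19.3% of all genes called in either direction and 9.14% lower). Among these were Hr, a JmjC corepressor, at -1.16 and Jmjd8 at -0.46. Of 10 tested genes listed with DNA methylation readers and repair, 1 was higher and 1 lower (20% called, beside 19.3% of all genes). Zbtb33 was higher by 0.37, and Ogt, a glycosyltransferase listed with them, was lower at -0.32. Zbtb33 was lost without control replicate 1 or 4 or cold replicate 1, 2 or 3 (adjusted p up to 0.0756), and Ogt without control replicate 4 or 5 or cold replicate 1, 2 or 3 (adjusted p up to 0.0815).

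Enzymes that supply or use the cofactors of chromatin marks had the widest range. Of 20 tested, 2 were higher and 5 lower (35% called, beside 19.3% of all genes). Acss2, which makes acetyl-CoA from acetate in cytosol and nucleus and also serves lipid synthesis, averaged 1453 ± 606 in control and 434.6 ± 68.2 CPM in cold libraries. Its groups did not overlap (log2 fold change -1.74, SE 0.24, edgeR adjusted p = 0.000363). Idh2, a mitochondrial source of alpha-ketoglutarate, was lower at -0.45. Nnmt, which consumes the methyl donor S-adenosylmethionine, was at 41.3 ± 28.1 and 105.4 ± 56.2 CPM (log2 fold change 1.35, SE 0.43, edgeR adjusted p = 0.0446), a call kept only without control replicate 2 or cold replicate 5 (adjusted p up to 0.126). No gene of these lists is among the 84, and no list was tested as a whole.

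**Figure D5:**
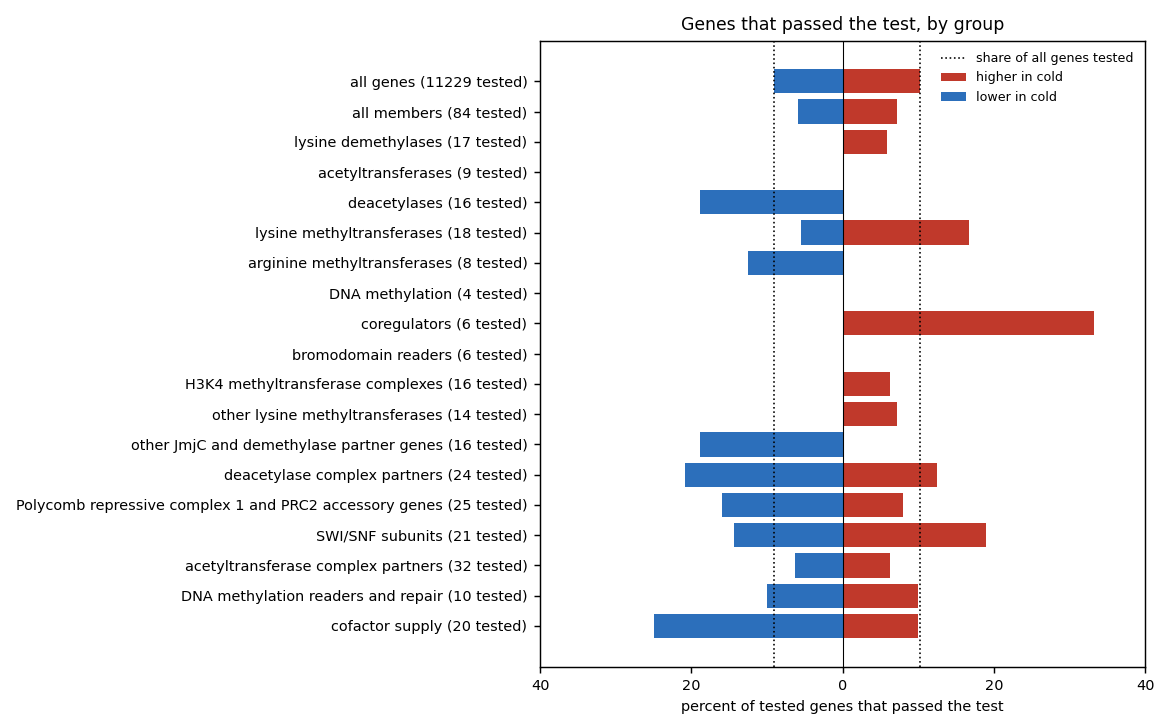
Percent of tested genes that were higher (red, right) or lower (blue, left) in cold, for all genes, for the 84 genes and their roles, and for lists of further chromatin genes; dotted lines mark 10.2% and 9.14% of all genes tested. Deacetylases have called genes on the lower side alone, with 18.8%, and coregulators on the higher side alone, with 33.3% of 6 genes.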

How the data were processed

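Poly-A selected RNA (4 µg of total RNA per library) of 10 single-housed mice was sequenced, per the labels' protocols. For cold samples the treatment tag says room temperature next to 4 °C, while titles, source names and protocol say cold. The submitters' processing notes name STAR, the build mm9 and edgeR. For versions, read counter and strand setting the sources used here give nothing. Reads from overlapping genes or from close copies therefore cannot be assigned with certainty. The deposited table holds raw counts per RefSeq gene model, the authors' bases counted per gene and gene coordinates, per the file headers. A second deposited table gives the authors' log2 fold change, log2 CPM, p-value and adjusted p for each gene (per the file headers). Control columns carry no group word and were matched by replicate number, with 0 library columns unused. Of the rows, 27 kept a RefSeq identifier as name.

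The whole count table was fitted with edgeR 4.0.16 (R 4.3.3): filterByExpr, TMM, quasi-likelihood test, no covariate, two-sided p-values adjusted by Benjamini and Hochberg over 11229 genes, threshold 0.05. The common biological coefficient of variation was 0.166. The SE is the log2 fold change divided by the square root of F. P-values measure the spread between separate mice. CPM use TMM-scaled totals, and RPKM divide them by the bases counted. Paralog ratios used a prior count of 0.5 and an exact permutation test over libraries (scipy 1.17.1). The scripts were tested on simulated data. Replicate numbers did not pair the libraries (correlations of same-numbered libraries -0.255 to 0.192).

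Genes and lists were chosen with earlier results of these data known. Named genes are all called genes, a panel of 28 genes whatever their result, the highest and lowest per length, and up to 2 called genes per direction and further list with the smallest p. Hdac2, Brd2, Kdm5a, Kdm8, Ncoa7, Setd2, Eed, Suz12, Sirt2 and Kat2a, and others named beside them, were chosen after their values were seen. So were Sin3a, Sin3b, Suds3 and Smarca4 of the further lists. Some genes that the rule takes are left out of the text and figures. Alternatives were unscaled library sizes, RLE and upper-quartile scaling, sizes without the 20 most abundant genes, no filter, CPM above 1 in at least 5 libraries, DESeq2 1.42.0, limma-voom 3.58.1, the replicate number as a block, each library left out, and control replicate 2 and cold replicate 5 left out together. No genome of build mm9 was used; promoter coordinates are those of GRCm38.p6 and gene coordinates those of mm9.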

Additional observations from a re-analysis of the deposited data

Results flagged for a closer look

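Over 68 named genes and 136 groups of 5 libraries, 4 groups held a library far from the other 4; about 1 group in 20 does so by chance. Kdm6b in cold replicate 4 stood at 79.4 CPM, above the 60.1 to 64.9 CPM of the other cold libraries. Suv39h2 in cold replicate 5 stood at 1.31 CPM, below the other cold libraries, which reached 2.22 CPM. Hdac2 in cold replicate 2 stood at 100 CPM, above 81.4 to 85.9 CPM. Ogt in control replicate 4 stood at 228 CPM, above 188 to 196 CPM. Leaving out the library concerned ended the calls of Kdm6b and Ogt, as given with each gene above.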

How the results depend on the processing

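Of the 11 called genes, all were called under RLE, upper quartile, DESeq2, limma-voom, the filter of CPM above 1 in at least 5 libraries and library sizes without the 20 most abundant genes. Without scaling factors 6 were higher and 3 lower (Hdac10 and Prmt10 lost), 10.7% called beside 19.1% of all genes. Without a filter 5 were higher and 4 lower (Kdm6b and Prmt10 lost), 10% called beside 13.2% of all genes. With the replicate block 6 were higher and 2 lower (Hdac10, Hdac3 and Prmt10 lost), 9.52% called beside 15.9% of all genes. The replicate numbers are not known to pair the libraries. Leaving out each library in turn gave 3 to 7 higher, 3 to 8 lower, and 14 to 28 further chromatin genes lower. Over these fits the share of all genes called ran from 13.8% to 21.4%. Without cold replicate 3, where that share was 13.8%, the counts were 3, 3 and 14. The count of ratios that passed was 0 under each setting, which says little. The smallest p of the exact permutation test, 5 against 5, adjusts to 0.0873 when 1 pair alone reaches it. With fewer libraries or the replicate block the smallest possible p is larger. Scaling does not change a ratio within a library. Scaling shifted the median log2 fold change of all genes by at most 0.0334. Values near 0 changed sign: Kdm1a was 0.0183 unscaled and 0.0386 without control replicate 2 and cold replicate 5, where Ep300 was 0.0596, Hdac5 -0.0911 and Tet2 0.146. The log2 fold change of Ep300 was 0.00885 unscaled, and the log2 fold change of Hdac5 was -0.00345 under upper quartile and -0.000563 without the 20 most abundant genes. With single libraries left out, Kdm1a ranged from -0.0748 to 0.0491, Ep300 from -0.110 to 0.0546, Hdac5 from -0.0476 to 0.0553, Sirt2 from -0.0847 to 0.0155, Sirt3 from -0.111 to 0.0357, Sirt6 from -0.226 to 0.0329, Tet2 from -0.244 to 0.166 and the log2 change in the ratio of Hdac4 to Hdac5 from -0.00705 to 0.603. The cause was not tested. Depth limits Suv39h2 and Hdac4, with 103 and 197 reads in all.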

Other observations

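The control libraries were the more variable group for these genes: the median coefficient of variation over the 84 genes was 14.5% in control and 10.9% in cold libraries, and it was larger in control for 59 of the 84. The widest control spread belonged to Hdac4 with 46.6%, Suv39h2 with 45.8%, Tet2 with 40.8%, Kdm3a with 39.8%, Kdm8 with 35.01%, Setd4 with 34.96%, Suv39h1 with 32.6% and Brd2 with 31.4%. For Hdac4, Tet2, Kdm3a, Setd4, Suv39h1 and Brd2, control replicate 2 was the highest library. In cold libraries the same quantity was 22.7%, 19.0%, 15.4%, 13.6%, 17.7%, 15.5%, 18.8% and 13.4% in that order. No test of this difference was made, and no value over all genes tested is given beside it. Control libraries held 4446163 to 5776905 counts and cold libraries 5676963 to 6923932, and the part of depth in the spread was not tested. The genes listed were picked for a wide control spread, so a smaller cold spread follows in part from that choice.

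In the authors' deposited table, 83 of the genes were present and 9 had an adjusted p under 0.05 (10.8%, beside 19.8% of that table), 5 higher and 4 lower. All 9 were also called here. In the authors' deposited table Kdm6b had an adjusted p of 0.0524 and Prmt10 of 0.0768, and both were called here. For called genes the log2 fold changes of the authors' deposited table and of the fit used here differed by at most 0.00523.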
